A study of Mus musculus with 3 samples.

Results

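Brush-border peptidases are the enzymes of the microvillus membrane that cut food peptides into amino acids and short peptides. The 8 genes described here are Anpep, Enpep, Xpnpep2, Dpp4, Ace, Mme, Mep1a and Mep1b. They were listed by their symbols, with earlier results of these data known, and all 8 were present among the 31053 genes counted. Counts of members beside shares of all genes are therefore a description and no test of an independent set. Intestinal epithelial cells of 3 male C57BL/6N wildtype mice, 12 weeks old and fed normal chow, were pooled before sorting of live cells negative for propidium iodide. The duodenum, the jejunum and the ileum each gave 1 library of 10x Genomics 3′ single-cell RNA sequencing. No genotype or treatment differed between the libraries, and each is labelled WT and CD, an abbreviation the labels do not explain. Pooled mice count as 1 sample per segment, so differences between segments have no replicate check and no p-value.

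Peptide digestion on the villus is shared between enzymes with different cuts. Aminopeptidases take residues from the free amino end of a peptide, dipeptidyl peptidases release pairs of residues, and endopeptidases cut inside the chain. Most of these enzymes are anchored in the membrane with the active site in the lumen, so that their products meet the amino acid and peptide transporters of the same cell. Several also act on hormones, among them angiotensins and the incretins.

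The 3 libraries held 27235 barcodes with 98518847 UMIs in duodenum, 87656078 in jejunum and 78074516 in ileum, where a UMI is 1 counted RNA molecule. After the filters described with the processing, 16686 cells remained, of which 11348 were named enterocytes. These enterocytes numbered 3588 in duodenum, 3508 in jejunum and 4252 in ileum, and 1068 of them were early enterocytes. All 13 enterocyte markers were found in at least 10% of these cells. The median share of mitochondrial UMIs in enterocytes was 28.3% in duodenum, 28.1% in jejunum and 12.1% in ileum, and the part of this difference in the results by segment was not tested. Between 20 and 28 barcodes were shared by any pair of libraries. The level of a gene is given as its UMIs per 10000 UMIs of the summed cells, with an exact 95% Poisson interval that covers counting error only. Because only 3′ ends were counted, levels were compared within a gene and not between genes.

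Positions are those of GENCODE M21 on GRCm38. Anpep (ENSMUSG00000039062) lies at chr7:79821803-79861059 on the minus strand, Dpp4 (ENSMUSG00000035000) at chr2:62330073-62412231 on the minus strand and Enpep (ENSMUSG00000028024) at chr3:129269175-129332720 on the minus strand. Mme (ENSMUSG00000027820) lies at chr3:63241537-63386030 on the plus strand, Ace (ENSMUSG00000020681) at chr11:105967945-105989964 on the plus strand and Xpnpep2 (ENSMUSG00000037005) at chrX:48108725-48136981 on the plus strand. Mep1a (ENSMUSG00000023914) lies at chr17:43474324-43502812 on the minus strand. No other annotated gene overlapped the last exon of any member. Where the 3′ reads fell was not examined, and the last exon of Mep1b has only 156 bases. Dpp4 and Ace each have an antisense gene elsewhere in the gene body that was counted separately.

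The search covered 10 RefSeq promoters of 7 of the members on GRCm38.p6. No promoter of Mep1b was searched, so its motifs are not known from this search. The 250 bases before each start were searched on both strands for 4 motifs of intestinal transcription factors, and 2 matches were found. The letters searched were GTTAAT for the core of the HNF1 site and CAAAGTCC for HNF4. For caudal factors such as Cdx2 they were TTTATG, and for GATA factors they were AGATAA. The background was the 32851 mouse promoters of the same length that were searched, which need not be all mouse promoters. Of these, 6.43% held the HNF1 core, 1.2% the HNF4 motif, 10.8% the CDX motif and 9.99% the GATA motif. The promoters of Anpep and Mep1a are shown because these genes differed most between segments beside Xpnpep2, and those of Ace and Dpp4 because they hold the matches, in capitals. The first lies at chr7:79848211-79848460 on the minus strand, the second at chr17:43502774-43503023 on the minus strand, the third at chr11:105967698-105967947 on the plus strand and the fourth at chr2:62412232-62412481 on the minus strand.
Anpep: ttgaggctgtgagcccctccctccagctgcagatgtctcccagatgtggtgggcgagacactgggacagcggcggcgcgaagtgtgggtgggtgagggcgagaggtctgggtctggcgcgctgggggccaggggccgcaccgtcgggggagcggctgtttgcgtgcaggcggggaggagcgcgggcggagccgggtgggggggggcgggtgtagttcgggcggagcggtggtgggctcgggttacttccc
Mep1a: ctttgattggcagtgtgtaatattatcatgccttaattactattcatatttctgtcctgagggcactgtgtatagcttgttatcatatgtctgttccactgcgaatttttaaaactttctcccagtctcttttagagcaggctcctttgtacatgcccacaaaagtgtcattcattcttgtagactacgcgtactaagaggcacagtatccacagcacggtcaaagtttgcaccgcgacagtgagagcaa
Ace: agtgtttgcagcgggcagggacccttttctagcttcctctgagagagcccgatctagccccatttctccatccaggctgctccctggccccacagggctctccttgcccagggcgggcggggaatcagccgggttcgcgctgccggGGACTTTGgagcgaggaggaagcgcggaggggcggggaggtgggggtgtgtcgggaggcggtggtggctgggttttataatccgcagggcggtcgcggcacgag
Dpp4: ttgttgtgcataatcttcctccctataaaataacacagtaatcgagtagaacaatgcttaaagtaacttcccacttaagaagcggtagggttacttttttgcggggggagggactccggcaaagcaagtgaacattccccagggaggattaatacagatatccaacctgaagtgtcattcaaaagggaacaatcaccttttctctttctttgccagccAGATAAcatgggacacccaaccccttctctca
The HNF4 match of Ace lay 104 bases before the start, on the reverse strand, and the GATA match of Dpp4 lay 32 bases before it. A match describes the letters only, binding was not measured, and 3′ counts do not tell which start a cell used.

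The first comparison asked how the peptidases differ along the gut. In enterocytes, 6 of the 8 genes were highest in the ileum, Mme was highest in the duodenum and Ace in the jejunum. Anpep, Mep1a and Xpnpep2 were higher in the ileum than in the duodenum by more than an order of magnitude, while Dpp4 and Mep1b differed about 2-fold. Of the members, 5 were at least 2-fold higher in the jejunum than in the duodenum, against 5.13% of the 7193 genes with a level of at least 0.1 in some segment, and 6.14% of these were lower by as much. The ileum was at least 2-fold above the duodenum for 6 members, against 10.9% of these genes, and below it by as much for 1 member, against 10.0%. With mitochondrial genes left out of the totals, 4 members were at least 2-fold higher in the ileum, since the ratio was 1.75 for Dpp4 and 1.95 for Mep1b. Against the jejunum, the ileum was at least 2-fold higher for 4 members, with 8.16% of all genes, and at least 2-fold lower for 2, with 4.89%. Enpep, one of the 4, was under 2-fold in cells of at most 20% mitochondrial UMIs. There its levels were 7.46 in ileum and 4.14 in jejunum, a ratio of 1.80.

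**Figure D1:**
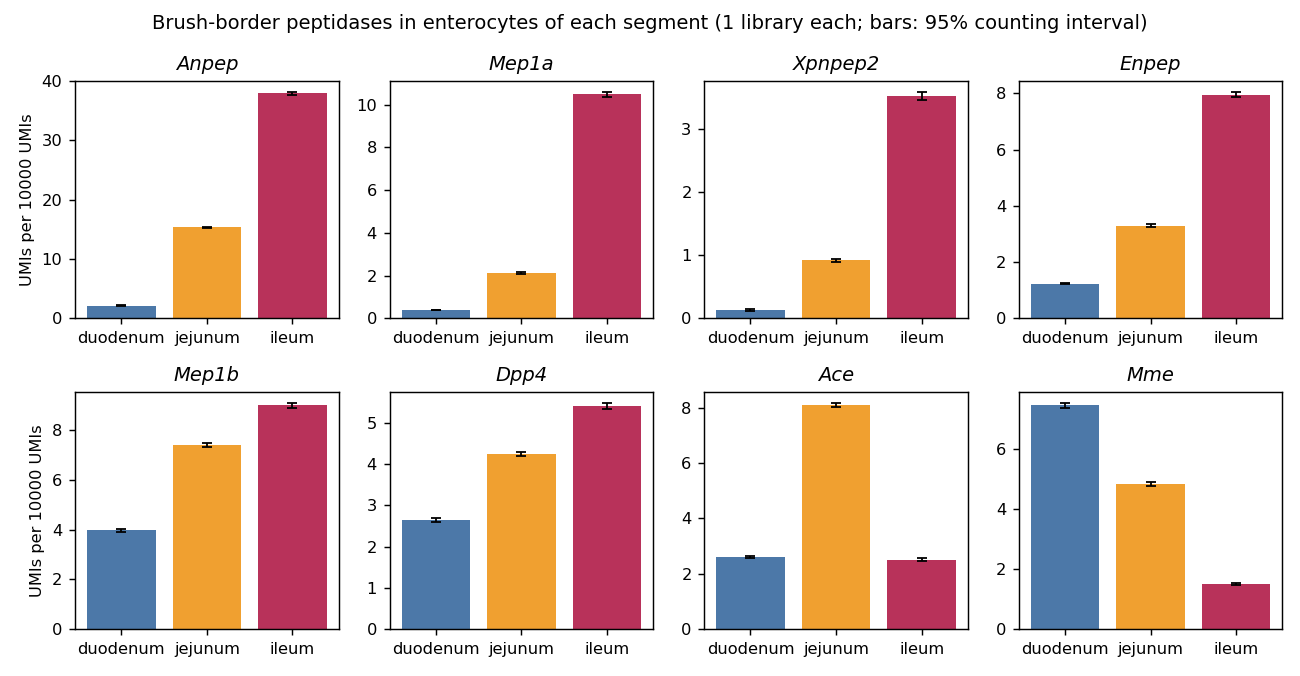
Levels of the 8 peptidases in enterocytes of each segment, as UMIs per 10000 UMIs of the summed cells on an axis from 0, with bars for the exact 95% Poisson interval of 1 library. Anpep climbs from 2.13 to 37.9 and Mme falls from 7.46 to 1.49 between duodenum and ileum, while Ace peaks in the jejunum at 8.10.

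Among the aminopeptidases, Anpep encodes aminopeptidase N, which removes neutral residues. Its level was 2.13 in duodenum (95% interval 2.09 to 2.17), 15.3 in jejunum (15.2 to 15.4) and 37.9 in ileum (37.7 to 38.1). The ileal level was 17.8 times the duodenal one (17.4 to 18.1), and the order held in all 5 villus zones described further on. With each cell thinned to 800 UMIs, Anpep was found in 11.1% of duodenal, 53.5% of jejunal and 84.8% of ileal enterocytes. In T cells, which serve here as a class that should lack it, the thinned shares were 0 of 35 cells, which allows a share of up to 8.57%, then 5.50% and 15%. Unthinned, 54.5% of duodenal enterocytes had an Anpep UMI.

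Enpep encodes aminopeptidase A, which removes acidic residues and cuts angiotensin II. Its level was 1.23 in duodenum, 3.30 in jejunum and 7.96 in ileum. The ileum was 6.45-fold above the duodenum (6.27 to 6.63) and 2.41-fold above the jejunum (2.37 to 2.46). Xpnpep2 encodes membrane-bound aminopeptidase P, which frees a residue that stands before a proline. It had the lowest UMI total of the 8 genes in the duodenum, 646 UMIs, and levels of 0.132, 0.917 and 3.53 from duodenum to ileum. The ileal level was 26.8 times the duodenal one (24.8 to 29.0). All 3 aminopeptidases were therefore ordered duodenum, jejunum, ileum, in each of the 5 zones.

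The dipeptidyl peptidase Dpp4, which cuts after a proline or alanine at the second position and inactivates the incretins, varied least among the genes that were highest in the ileum. Its levels were 2.65 in duodenum, 4.25 in jejunum and 5.42 in ileum, a ratio of 2.04 between the ends (2.00 to 2.09). The ileum exceeded the duodenum in 5 of 5 zones, but the jejunum exceeded the duodenum in only 3 of 5. Ace, the angiotensin-converting enzyme, which takes pairs of residues from the carboxyl end, gave a different order. Its level in the jejunum, 8.10 (8.02 to 8.18), was 3.10 times that in the duodenum (2.61) and 3.24 times that in the ileum (2.50). Duodenum and ileum differed little for Ace, with a ratio of 0.959 (0.934 to 0.984), and the ileum was the higher one in 3 of 5 zones. This ratio ran from 0.821 to 1.16 over the alternatives, so no order of the pair was drawn.

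The endopeptidases split into opposite patterns. Mme encodes neprilysin, which cuts many small peptide hormones. Its levels were 7.46 in duodenum (7.38 to 7.53), 4.83 in jejunum (4.77 to 4.89) and 1.49 in ileum (1.45 to 1.52). The duodenum was 5.01-fold above the ileum, in 5 of 5 zones, and Mme was the only member with this order. Mep1a and Mep1b encode the α and β subunits of meprin, metalloproteases of the astacin family that form mixed oligomers. By GENCODE M21, Mep1b (ENSMUSG00000024313) lies at chr18:21061923-21100199 on the plus strand of GRCm38. Mep1a was 0.385 in duodenum, 2.13 in jejunum and 10.5 in ileum, a 27.2-fold difference between the ends (26.0 to 28.5). Mep1b was 3.96, 7.41 and 9.0, a 2.27-fold difference (2.23 to 2.31). The meprin subunits thus had the same order but unequal steps, so that the ratio of the UMIs of Mep1a to those of Mep1b changed along the gut.

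Early enterocytes, a cluster led by Ms4a18, Gsdmc4 and 1810065E05Rik, held the same order of segments for 6 of the 8 genes. In them Anpep was 3.98 in duodenum, 17.1 in jejunum and 20.8 in ileum. Mme was 3.05, 2.90 and 0.296, and its intervals in duodenum and jejunum overlapped. Ace was again highest in the jejunum with 3.24, while its 0.685 in the duodenum and 0.710 in the ileum had overlapping intervals. Dpp4 also departed from the order, with 3.38 in the jejunum and 3.24 in the ileum, whose intervals also overlapped, against 1.16 in the duodenum.

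The second comparison asked how the peptidases change along the villus. Enterocytes of each library were ordered by 15 landmark genes of the villus bottom and tip, none of them a member, and divided into 5 zones of equal cell number from bottom (zone 1) to top (zone 5). Genes held out of the score bore on the order of the zones. Of these, the mid-villus genes Slc2a2, Slc2a5 and Slc5a1 had log2 fold changes of -3.44, -2.40 and -1.26 between zone 5 and zone 1. A comparison of the ends cannot place a peak between them. Klf4, Creb3l3, Apob and Cdkn1a, known from the upper villus, rose to the top with log2 fold changes between 1.54 and 3.30, and Nlrp6 and Cps1, known from the lower villus, fell by 4.90 and 3.5 on the log2 scale. Slc12a2 had a log2 fold change of -0.37 that did not pass the test, and Olfm4, a crypt gene with levels of at most 0.0737 in any zone, went against the label with 1.28. Early enterocytes made up 50.3%, 38.5% and 49.9% of zone 1 cells in duodenum, jejunum and ileum and under 1% of each other zone. They were named with markers that include the bottom landmarks Lypd8, Dmbt1, Reg3b, Reg3g, Gpx2 and Ccl25 and the held-out Nlrp6. This share is therefore no check of the zone order. The zones are ranges of a continuous score, and 27.4% to 30.6% of cells lay within 0.1 SD of a boundary. Levels weigh each cell by its UMIs, and depth differed between zones. Median UMIs in zones 1 and 5 were 18280 and 8538 in duodenum, 18940 and 11210 in jejunum and 15270 and 7467 in ileum. The lowest median was 5374, in zone 2 of the ileum. The part of depth in the levels was not tested.

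**Figure D2:**
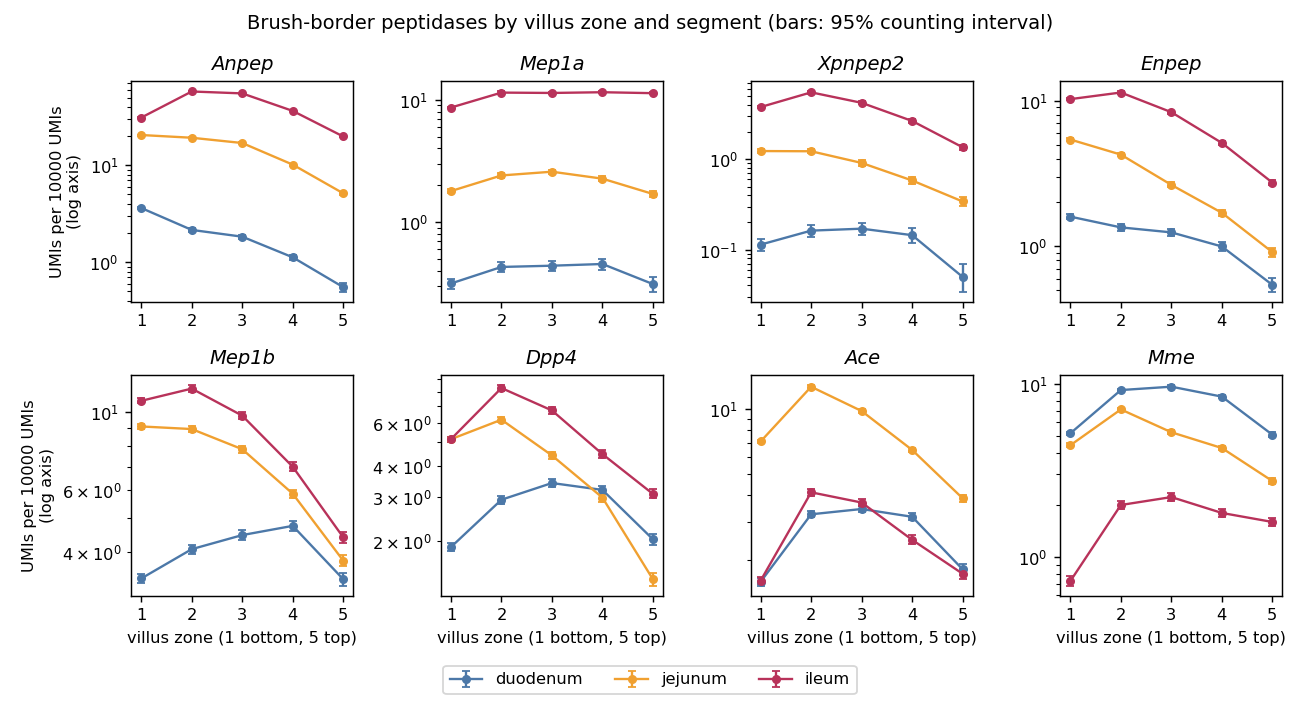
Levels of the 8 peptidases by villus zone, from 1 at the bottom to 5 at the top, as UMIs per 10000 UMIs on a log axis, with 1 line per segment and bars for the exact 95% Poisson interval. Enpep is highest in zone 1 or 2 and lowest in zone 5 in each segment, while Ace, Dpp4 and Mme are highest in zone 2 or 3 and Mep1a varies little within a segment.

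Enpep was lower at the top than at the bottom in each segment. Its levels in zones 1 and 5 were 1.60 and 0.544 in duodenum, 5.41 and 0.912 in jejunum and 10.2 and 2.74 in ileum. Anpep was 3.63 and 0.554 at these ends in the duodenum and 20.5 and 5.14 in the jejunum. In the ileum it was 31.0 in zone 1, 57.7 in zone 2 and 19.8 in zone 5. A similar picture was seen for Xpnpep2, with 0.113 and 0.0497 at the ends in duodenum, 1.24 and 0.341 in jejunum and 3.80 and 1.36 in ileum, where zone 2 had 5.54. The 3 aminopeptidases were therefore lower in zone 5 than in zone 1 of every segment.

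Dpp4 and Ace were highest between the ends of the villus. Dpp4 reached 3.43 in duodenal zone 3, 6.17 in jejunal zone 2 and 8.28 in ileal zone 2. Ace was 1.59 in zone 1 and 3.46 in zone 3 of the duodenum, 7.09 in zone 1 and 12.7 in zone 2 of the jejunum and 1.62 in zone 1 and 4.13 in zone 2 of the ileum. At the top, Ace was 1.82, 3.87 and 1.74 in the same order, below each of these peaks.

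Mme had the same arch in duodenum and jejunum, with 5.19, 9.66 and 5.09 in zones 1, 3 and 5 of the duodenum and 4.42, 7.13 and 2.75 in zones 1, 2 and 5 of the jejunum. In the ileum it was 0.724 in zone 1, 2.22 in zone 3 and 1.59 in zone 5. Mep1a varied little within a segment, with levels between 0.310 and 0.453 in duodenum, 1.70 and 2.58 in jejunum and 8.66 and 11.6 in ileum. Mep1b was 9.10 in zone 1 and 3.78 in zone 5 of the jejunum and 10.8 and 4.41 in the ileum, but 3.37 and 3.35 at the ends of the duodenal villus, with 4.75 in zone 4.

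UMIs summed per library and zone were compared with edgeR's quasi-likelihood test, with library as a block and TMM scaling, and adjusted p-values over all 11077 genes tested by the Benjamini-Hochberg method. Between zone 5 and zone 1, 3 members fell and 2 rose at an adjusted p under 0.05, where 36.8% of all genes fell and 33.6% rose. Enpep fell by 1.43 on the log2 scale (SE 0.169, adjusted p = 1.0e-05), Anpep by 1.31 (SE 0.339, adjusted p = 0.0040) and Xpnpep2 by 0.92 (SE 0.182, adjusted p = 0.00062). Mep1a rose with a log2 fold change of 0.72 (SE 0.144, adjusted p = 0.00068) and Mme with 0.70 (SE 0.261, adjusted p = 0.029). Ace had 0.39 (adjusted p = 0.066), Dpp4 -0.24 (adjusted p = 0.41) and Mep1b -0.26 (adjusted p = 0.23), and these did not pass. By level, before TMM scaling, Mep1a and Mme were higher in zone 5 than in zone 1 in the ileum only. In zones 1 and 5, Mep1a had 0.314 and 0.310 in duodenum, 1.79 and 1.70 in jejunum and 8.66 and 11.4 in ileum.

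Some of these calls depended on the scaling. The median log2 fold change of all genes was -0.10 with TMM and -0.69 with library sizes alone, and the share of called genes that rose was 47.7% and 25.4%. Without TMM, Enpep, Anpep and Xpnpep2 remained lower at the top, with log2 fold changes of -2.03, -1.89 and -1.55, and Dpp4 (-0.84) and Mep1b (-0.86) passed the test as well. Mme (0.10), Mep1a (0.11) and Ace (-0.21) then passed in neither direction, although all 3 lay above the median of all genes. Without early enterocytes, 6 members fell and none rose, with Ace at -0.61, Dpp4 at -0.96 and Mep1b at -0.60, and with no library block no member passed the test. Ace passed as higher at the top with DESeq2 (0.43, adjusted p = 0.034), without the jejunum (0.67, adjusted p = 0.016), with cells of at most 20% mitochondrial UMIs (1.36, adjusted p = 0.00066) and with a score from the UMI ratio of the landmarks (0.64, adjusted p = 0.0017), but without early enterocytes as lower, so its direction was not settled. Without the jejunum or without the duodenum, Anpep no longer passed (adjusted p = 0.062 and 0.072), and without the duodenum or the ileum Mme did not (0.063 and 0.31).

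**Figure D3:**
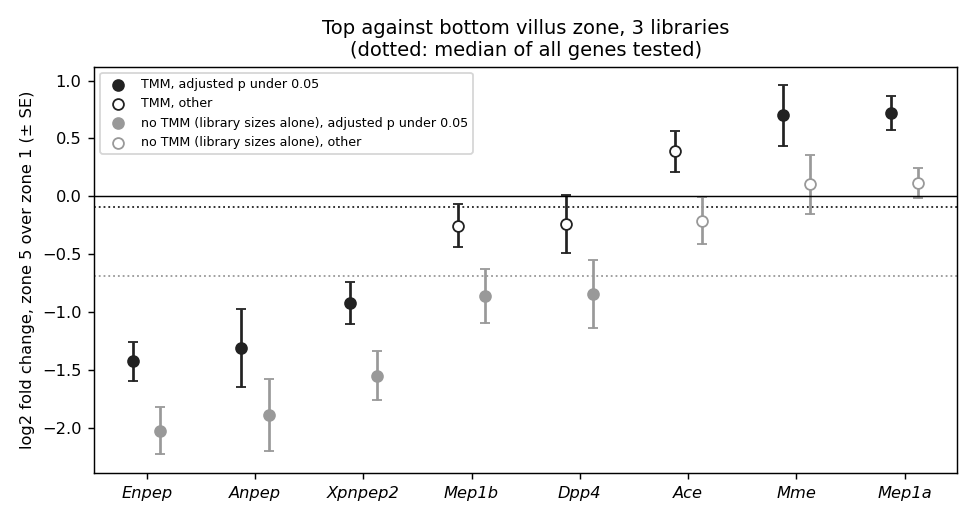
Log2 fold change of each peptidase in zone 5 over zone 1 across the 3 libraries, with bars for the SE, in black with TMM scaling and in grey with library sizes alone; filled points have an adjusted p under 0.05 and dotted lines mark the median of all genes tested. Enpep, Anpep and Xpnpep2 lie below both medians, and Mme and Mep1a lie above 0 by 0.70 and 0.72 with TMM and by 0.10 and 0.11 without it.

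Because several genes peaked inside the villus, the middle zone was also set against both ends, a comparison added after the levels were seen. Its values restate those levels with an error across libraries and are no independent support for them, and this comparison was run with TMM only. From zone 1 to zone 3, the log2 fold change was 1.08 for Ace (SE 0.179), 1.03 for Mme (SE 0.260) and 0.65 for Mep1a (SE 0.144), the members past the threshold, where 23.8% of all genes were called higher and 24.1% lower. From zone 3 to zone 5, the members past the threshold were Enpep, Anpep, Xpnpep2, Ace and Dpp4, with log2 fold changes of -1.03, -1.2, -1.17, -0.69 and -0.72, where 18.7% of all genes were called lower and 19.7% higher. Mep1b was at -0.44 and did not pass.

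The third comparison asked whether other cells than enterocytes held these RNAs. UMIs were summed per library and cell class, in which a class is called by markers, for goblet-like, tuft-like, enteroendocrine-like (EEC-like), T cell-like, B cell-like, IgA B cell-like, macrophage/dendritic-like and stem or proliferating (ISC/proliferating-like) cells. All 8 members were higher in enterocytes than in each of the 8 classes tested, though for Xpnpep2 the calls against EECs and goblet cells were lost under several settings given further on. The background was 18.8% of 12642 genes called higher against goblet cells, 23.6% against tuft cells, 27.3% against EECs, 33.1% against ISC/proliferating cells, 32.9% against T cells, 30.9% against B cells, 27.8% against IgA B cells and 31.5% against macrophage/dendritic cells. In the same order, 14.4%, 18.4%, 23.1%, 26.9%, 27.3%, 23.7%, 17.9% and 24.7% of genes were called lower in enterocytes. Log2 fold changes lay between 1.3 for Xpnpep2 against EECs and 5.28 for Mep1b against ISC/proliferating cells. With library sizes alone in place of TMM, the median of all genes in these comparisons moved from between 0.09 and 0.57 to between -0.68 and 1.19, and the share of called genes that were higher moved from between 54.2% and 60.9% to between 23.3% and 77.5%. Paneth-like cells, 24 in all, reached 10 cells in 1 library only and were not tested.

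Anpep kept its order of segments in several classes outside enterocytes. It was, in goblet cells, 0.322 in duodenum, 1.34 in jejunum and 2.87 in ileum, and in T cells 0.424, 2.31 and 5.74. The median of the 13 enterocyte markers, which T cells are not known to make, was also not 0 there and stood at 31.1%, 8.76% and 14.8% of the enterocyte level in duodenal, jejunal and ileal T cells. Members near such values were not read as expressed by that class. With the 10% of cells richest in enterocyte markers left out of each class, the marker medians in ileal T cells, goblet cells and tuft cells fell to between 2.89% and 3.56% of the enterocyte level. The cells left out were chosen by these same 13 markers, so trimming lowers the markers by design and the members only indirectly. A trimmed member above the trimmed markers is therefore no independent sign of expression.

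**Figure D4:**
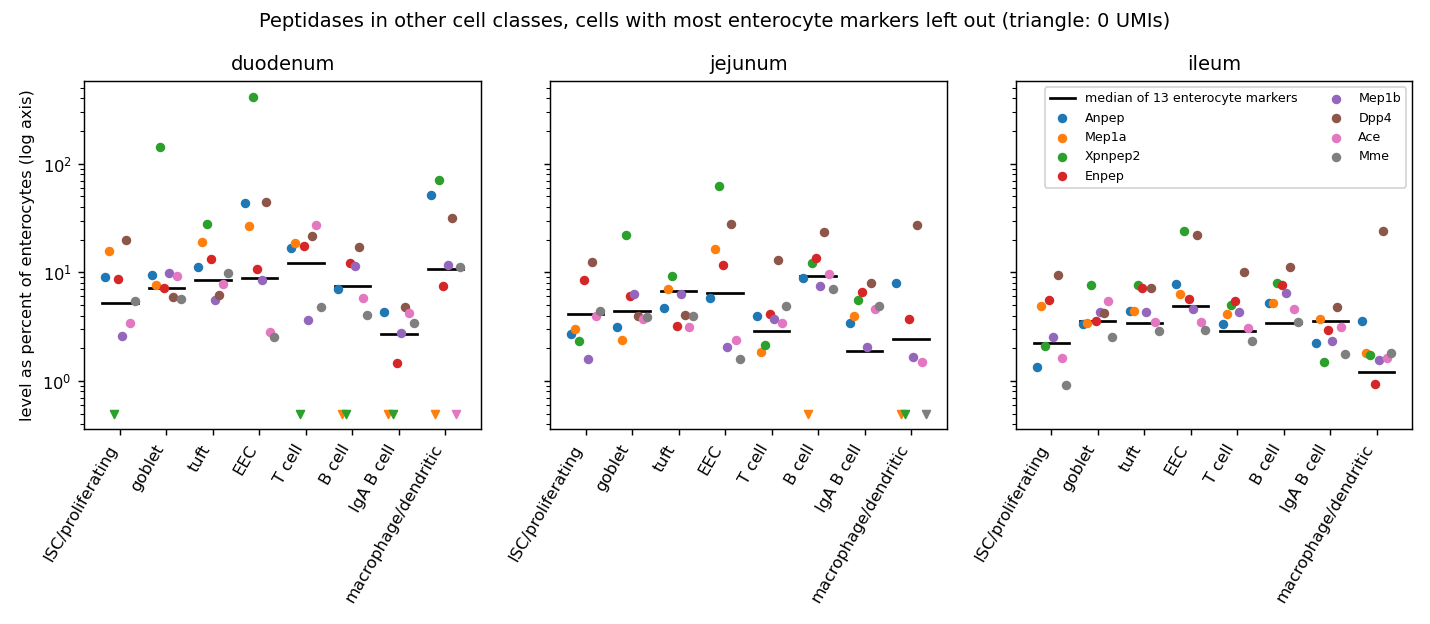
Level of each peptidase in the other cell classes as a percent of its level in enterocytes of the same library, on a log axis, with the 10% of cells richest in enterocyte markers left out; black lines mark the median of the 13 enterocyte markers and triangles mark 0 UMIs. Xpnpep2 in EECs and goblet cells and Dpp4 in EECs and macrophage/dendritic cells lie above the lines in each segment. The cells left out were chosen by the same 13 markers, so that choice lowers the lines.

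Xpnpep2 was the member whose level outside enterocytes came closest to theirs. In EECs, the hormone cells of the epithelium, it was 0.507 in duodenum (0.362 to 0.690, 40 UMIs in 53 cells), 0.511 in jejunum (0.286 to 0.842, 15 UMIs in 24 cells) and 0.996 in ileum (0.788 to 1.24, 78 UMIs in 94 cells). These values are 385% of the duodenal, 55.7% of the jejunal and 28.3% of the ileal enterocyte level, so that the direction in the duodenum was opposite to that in the ileum. Goblet cells, which secrete mucus, had 0.198, 0.258 and 0.422, or 151%, 28.2% and 12.0% of the enterocyte level. The trimmed percentages were 413%, 62.8% and 24.1% in EECs and 141%, 21.9% and 7.69% in goblet cells, where the marker medians were 8.91%, 6.52% and 4.91%, and 7.21%, 4.41% and 3.56%. The highest of the 13 markers stood at 45.7%, 98.2% and 90.3% in these EECs, above Xpnpep2 in jejunum and ileum, and at 41.5%, 12.2% and 14.3% in goblet cells, above it in the ileum. Over all libraries, with library as a block, Xpnpep2 passed the edgeR test as higher in enterocytes than in EECs and goblet cells. The log2 fold changes were 1.3 (adjusted p = 0.033) against EECs and 1.59 (adjusted p = 0.010) against goblet cells. Without the ileum these values were 0.14 (adjusted p = 0.86) and 0.67 (adjusted p = 0.29), and without the jejunum 1.06 (adjusted p = 0.25) and 1.40 (adjusted p = 0.18). The call against EECs was also lost with DESeq2 (0.78, adjusted p = 0.35), without TMM (0.46, adjusted p = 0.45), with no library block (1.94, adjusted p = 0.072), with cells of at most 20% mitochondrial UMIs (0.90, adjusted p = 0.23), with coarser clusters (1.2, adjusted p = 0.066) and with the pair of classes fitted alone (1.12, adjusted p = 0.16). That against goblet cells was lost with DESeq2 (1.39, adjusted p = 0.091), with no library block (2.23, adjusted p = 0.054) and with the pair fitted alone (1.43, adjusted p = 0.12).

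Dpp4, known as CD26 on lymphocytes, had its highest levels among the 8 classes, with libraries summed, in EECs and in macrophage/dendritic cells. In EECs it was 1.58 (1.32 to 1.89) in duodenum, 1.46 (1.06 to 1.97) in jejunum and 1.41 (1.15 to 1.69) in ileum, with overlapping intervals, while the enterocyte level in the ileum was 2.04 times that in the duodenum. These are 59.7%, 34.5% and 25.9% of the enterocyte level, and 44.3%, 28.1% and 22.1% after trimming. The highest enterocyte marker of the trimmed EECs, at 45.7%, 98.2% and 90.3%, exceeded Dpp4 in each library. In macrophage/dendritic cells Dpp4 was 0.941 (11 UMIs in 12 cells), 1.69 (38 UMIs in 21 cells) and 1.41 (233 UMIs in 105 cells), or 35.5%, 39.8% and 26.1% of the enterocyte level. The enterocyte markers of that class had medians of 15.3%, 5.36% and 4.94% and highest values of 29.5%, 9.66% and 7.77%. Dpp4 lay above these in each library, though its duodenal value rested on 11 UMIs. Of the other members in ileal macrophage/dendritic cells, none exceeded 5.71%. By cluster, Dpp4 was 1.65 in the 88 cells led by Mmp12, Il1r2 and Cd209a, 1.35 in the 24 cells led by Xcr1, Ccl17 and Apol7c and 0.616 in the 26 cells led by Ms4a7 and C1q genes.

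In T cells, Dpp4 was 1.27 (0.814 to 1.89, 24 UMIs in 35 cells) in duodenum, 0.926 (0.699 to 1.2, 56 UMIs in 109 cells) in jejunum and 1.2 (1.11 to 1.3, 640 UMIs in 1083 cells) in ileum. These levels were 47.9%, 21.8% and 22.2% of those in enterocytes. The highest of the 13 enterocyte markers stood at 46.1%, 10.6% and 18.7%, below Dpp4 in each library, though in the duodenum well within its interval of 30.7% to 71.3%. After trimming, Dpp4 was 21.6%, 12.9% and 9.99%, against marker medians of 12.1%, 2.89% and 2.89% and highest values of 25.9%, 4.8% and 6.09%. The trimmed value thus exceeded every marker in the jejunum and the ileum and not in the duodenum, where it rested on 8 UMIs. Because the cells left out were chosen by these markers, the trimmed comparison favours Dpp4 by design. The T cell cluster led by Trdc, Tcrg-C1 and Klrd1, of 760 cells, had a Dpp4 level of 1.36, and that led by Cd8b1, Izumo1r and Ms4a4b, of 467 cells, 0.796, but Anpep differed in the same way (6.51 and 2.61).

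Among enterocyte clusters, which differ in their makeup by segment, levels also differed. The cluster led by Cpn1, Sprr1a and Plat, with Slc10a2 among its leading genes and 563 of its 644 cells from the ileum, had 38.6 for Anpep and 10.7 for Mep1a. The cluster led by the interferon-response genes Ifit3, Rsad2 and Ifit1, with 191 of 276 cells from the duodenum, had 8.80 for Mme and 1.23 for Mep1a. The tip cluster led by Nt5e, Slc28a2 and Ada, 2325 cells, had 1.54 for Enpep and 4.88 for Mep1a. An unnamed cluster of 1337 cells led by Gm26917 and with Fgf15 and Fabp6 among its leading genes had 28.6 for Anpep, 6.89 for Enpep and 1.34 for Mme. With it added to the enterocytes, the ratios of ileum to duodenum were 17.3 for Anpep, 2.03 for Dpp4 and 26.4 for Mep1a.

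The rest of peptide digestion was followed with 4 lists chosen with earlier results of these data known. Of 18 other genes of peptide digestion and uptake, 12 were tested between zone 5 and zone 1. Among these, 8 rose and 1 fell, with a median log2 fold change of 0.92 beside -0.10 over all genes, of which 33.6% rose and 36.8% fell. Fap, a serine peptidase related to Dpp4, rose most with 3.42, though its level stayed at or below 0.0617. Tmprss15, the enteropeptidase that activates trypsinogen, rose with 2.97, from 0.41 to 2.69 in the duodenum, and was at most 0.0135 in the other segments. The peptide transporter Slc15a1 rose with 1.47, whereas Ece1, endothelin-converting enzyme, fell by 2.55 on the log2 scale. The scaling matters here too, because over the 4 lists 22 genes rose and 16 fell with TMM and 13 rose and 29 fell without it.

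Of 20 cytosolic and lysosomal peptidases and related hydrolases, 4 rose and 3 fell, with a median log2 fold change of -0.04, again beside 33.6% and 36.8% of all genes. Npl (0.91), a lyase of sialic acid, and Pepd (0.51), a dipeptidase for proline peptides, rose most, and Blmh (-1.22), bleomycin hydrolase, and Pm20d1 (-1.18) fell most. Of 12 amino acid transporters, 3 rose and 7 fell, with a median of -0.65 and the same shares over all genes. Slc6a19, the main carrier of neutral amino acids, rose with 2.17 and Slc3a1, a subunit of the cystine carrier, with 1.32, while Slc1a1 (-5.04), a glutamate carrier, and Slc7a8 (-3.58) fell most. Of 14 intestinal transcription factors, 7 rose and 5 fell, with a median of 0.70, beside those shares. Prdm1 (5.53) and Klf4 (3.30) rose most and Klf5 (-1.75) and Maf (-1.42) fell most. Hnf4g (-1.19), Cdx1 (-1.13) and Cdx2 (-0.59) also fell. Hnf4a, named in addition, rose less (2.07) than Creb3l3 (2.57) and Onecut2 (2.13). Its levels were 1.77, 1.82 and 2.24 in zone 1 and 4.35, 5.2 and 7.27 in zone 5 of duodenum, jejunum and ileum.

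Genes with patterns most like those of the members were named by Pearson's r of log2 levels over the 15 sums of 3 segments and 5 zones, among 2494 genes with a mean level of at least 0.5. The sums share libraries, depth and the zone order, so r is given as a description. Mep1a was closest to Naaladl1 (r = 0.991), a peptidase gene related to glutamate carboxypeptidase II, and also close to Plb1 (0.983). Xpnpep2 was closest to Fam151a (0.989), Slc52a3 (0.983) and Cndp2 (0.977), and Anpep to 2210016F16Rik (0.977), Cndp2 (0.974) and Aoc1 (0.965). Enpep was closest to Xpnpep1 (0.980), 2210016F16Rik (0.973) and Slc13a2 (0.969). Mep1b was closest to Cubn (0.946), Acaa1a (0.943) and Smim22 (0.940), and Dpp4 to Atxn7l3b (0.967), Cubn (0.956) and Adck5 (0.95). Mme was closest to H2-Q1 (0.980), Phyh (0.968) and Ifi27l2b (0.959), and Ace to Dnase1 (0.941), Ift20 (0.926) and Pdk4 (0.924). Between members, r was highest for Anpep and Xpnpep2 (0.961) and lowest for Mme and Mep1a (-0.82).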

How the data were processed

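Cells of 3 pooled mice per segment were sequenced as 1 library each of duodenum, jejunum and ileum. Per the labels and the study's methods, the authors made raw UMI counts per gene and barcode with Cell Ranger 3.0.2 on the GRCm38 (mm10) mouse genome, and these deposited counts were used as they were. Kept barcodes had between 800 and 50000 UMIs, between 200 and 6000 genes and no more than 40% of UMIs from mitochondrial genes. Total depth was 98518847, 87656078 and 78074516 UMIs, and intervals cover counting error only. Cells were integrated by anchors and clustered in Seurat 5.3.0 (2000 variable genes without the members, 30 components), and clusters were named from markers; the last part of the naming rule was chosen after the clusters were seen, so shares may differ from the authors' own names. No doublet caller was run, and the 10% of cells of each class richest in enterocyte markers were left out as an alternative.

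The members, lists and tests were chosen with earlier results of these data known. Segments were compared by levels with Poisson intervals and no test. UMI sums of at least 10 cells per library and class, or per library and zone, were tested with edgeR 4.0.16 (quasi-likelihood, filterByExpr, TMM, library as block, R 4.3.3), with Benjamini-Hochberg adjustment over all genes and a threshold of 0.05. The block is the library, since sums of 1 library share its cells' source, and p-values measure the spread between 3 segments, not between animals. All 8 members are named, with the 3 genes closest to each by Pearson's r (log2 of level plus 0.1) and, of each list, the genes that rose and fell most; a few genes that this rule names are not reported here. On simulated counts with a log2 change of 1, the zone test recovered 55.4% of changed genes. Apart from the changes put in, each gene had the same mean share in every simulated zone and segment. The recovery therefore does not cover the shift between zones on which the calls with and without TMM depended. Alternatives were no TMM, DESeq2 1.42.0, other filters, zones and clusterings, no block and each library left out. Promoters and positions came from RefSeq and GENCODE M21, with 99.6% of gene IDs matched. Python 3.11.15 with numpy 2.4.6, pandas 2.3.3, scipy 1.17.1 and matplotlib 3.10.9 was used.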

Additional observations from a re-analysis of the deposited data

Results flagged for a closer look

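Along the villus, Mme differed in direction between segments. Its log2 ratio of zone 5 to zone 1 was -0.69 in jejunum and 1.14 in ileum, a difference of 1.82, and each segment is 1 library, so the difference was not tested. For Ace the log2 ratio was 0.19 in the duodenum and -0.87 in the jejunum, a difference of -1.06 that was not tested either.

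The barcodes left out for a mitochondrial share over 40%, 10109 in all, also held UMIs of each peptidase, above the limit that a count of 0 allows. Per 10000 UMIs their levels were 6.09 for Anpep, 3.55 for Mme, 3.34 for Ace and 2.96 for Mep1b. Dpp4 stood at 2.26, Enpep at 1.76, Mep1a at 0.892 and Xpnpep2 at 0.432, each below its level in kept enterocytes of all libraries. These levels are not matched by segment, since 44.8% of duodenal, 53.6% of jejunal and 84.1% of ileal barcodes were kept. Mitochondrial UMIs count in the total, and they were over 40% in these barcodes against a median of 22.7% in kept enterocytes. A larger mitochondrial share by itself lowers such a level, and the part of either limit in the difference was not tested. The removed barcodes were not named by cell class.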

How the results depend on the processing

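Of the members, Ace changed direction between duodenum and ileum under the alternatives run (0.821 to 1.16), and no other comparison between segments did. The ratio of ileum to duodenum ranged from 15.2 to 24.9 for Anpep, 23.3 to 31.2 for Mep1a and 1.75 to 2.30 for Dpp4. Of 999 values of members against other classes, 984 stayed on the same side of the threshold and 15 did not pass. Along the villus, the count of members that rose was 0 without TMM, 0 with no library block, 1 with a linear trend, 1 with 3 zones and 0 without early enterocytes, and 1 to 3 with a library left out. The count that fell was 5 without TMM, 0 with no library block and 6 without early enterocytes, and 2 to 4 with a library left out. Over the 4 lists, 13 genes rose and 29 fell without TMM, and 11 and 9 with no library block. Dpp4 in T cells was 21.6%, 12.9% and 9.99% of the enterocyte level in duodenum, jejunum and ileum without the cells richest in enterocyte markers. Log2 fold changes that turned were those of Dpp4 (-0.61 to 0.21 with a library left out, positive without the jejunum, and 0.22 at most 20% mitochondrial), Mme (-0.18 without early enterocytes), Ace (-0.21 without TMM, -0.61 without early enterocytes) and Mep1b (0.033 at most 20% mitochondrial). The cause was not tested. Between segments, no paired analysis was possible because each segment is 1 library and the replicate numbers name no shared sample. The tests by zone and class did compare sums within a library, through the library block. Small classes limit depth, with 8 Dpp4 UMIs in trimmed duodenal T cells.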
